A study of Mus musculus with 7 samples.

Results

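Nuclei of alveolar type 1 cells were picked out of the lung tumors of 4 male mice by their transcripts. A nucleus was a member when at least 3 of the 8 marker genes Ager, Hopx, Rtkn2, Clic5, Cldn18, Col4a3, Col4a4 and Anxa3 had a count, when these genes together made up at least 0.25% of its transcripts, and when their sum exceeded that of the alveolar type 2 genes Sftpc, Sftpa1, Slc34a2, Lamp3, Abca3 and Hc. Of 38254 nuclei kept for having at least 300 transcripts, at most 10% mitochondrial transcripts and at most 12000 genes, 262 (0.685%) were members. The animal RP1 gave 30 members, RP2 gave 55, RPC1 gave 51 and RPC2 gave 126. RP mice carried Rb1 fl/fl and Trp53 fl/fl alleles, and RPC mice carried in addition a conditional Casp8 allele, whose loss the labels write as Casp8-/-. In all 4 animals tumors were started by inhaled adenovirus carrying Cre recombinase under the CMV promoter, which is active in many cell types, and fresh-frozen tumors were collected at the endpoint of disease. The mice were infected as young adults, the labels give no age, no lung without Cre was analysed here, and which nuclei had recombined is not known. Each of the 7 libraries pooled nuclei of all 4 animals, so the animal was the replicate, with 2 animals per genotype. The comparison of RPC with RP asks what the lung epithelium beside or within the tumors looked like when Casp8, an initiator protease of cell death that also restrains necroptosis, had been targeted too.

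Alveolar type 1 cells are flat and very thin, and they cover most of the gas-exchanging surface of the lung. They share a basement membrane with the capillaries, make Vegfa, which keeps those capillaries, and move water and ions across the alveolar wall. Cuboidal alveolar type 2 cells, which make surfactant, renew them after injury through a transitional state, and flat type 1 cells depend on the Hippo pathway effectors Yap1 and Wwtr1 (Taz) acting through the TEAD factors. Levels are given below as CPM (counts per 1000000 transcripts) over the summed nuclei of an animal, always in the order RP1, RP2, RPC1 and RPC2. They are used to compare 1 gene between groups of nuclei, not genes with each other, since the counts were not scaled by gene length.

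The gate genes chose the nuclei, so their levels are a description without a test. Rtkn2 (ENSMUSG00000037846, GRCm39 chr10:67815390-67895570, plus strand), a type 1 marker gene, stood at 3488, 2296, 1909 and 2227 CPM in the members and at 88.1, 45.9, 86.6 and 102 CPM in all other kept nuclei. Col4a3, a chain of type IV collagen, stood at 1466, 1477, 1449 and 1436 CPM against 4.08, 5.49, 9.81 and 8.07 CPM. Members lay far above the other nuclei in every animal for both genes. Over the animals, the level in members was 148 to 359.5 times that of the other nuclei for Col4a3, 109 to 382 times for Col4a4, 99.8 to 146 times for Hopx, 55.5 to 167 times for Cldn18, 53.5 to 132 times for Clic5, 27.1 to 65 times for Anxa3, 21.8 to 49.99 times for Rtkn2 and 20.5 to 45.8 times for Ager. Type 2 nuclei, chosen by the mirror rule, were intermediate for Col4a3, at 782, 191, 302 and 284 CPM, and for Anxa3, at 345, 256, 382 and 351 CPM. Ager, the receptor for advanced glycation end products, stood at 298, 299, 145 and 326 CPM in members, lower in RPC1 than in the other 3 animals.

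The promoters of these 8 genes were read for letters that lung epithelial factors bind, over 250 bases before and 50 after the start site (GRCm39 genome, GENCODE start sites). On either strand, CATTCC, the core read by TEAD factors, was in 0 of the 8 windows, against 13.99% of 21757 windows of all genes. CACTCAA, part of the site read by Nkx2-1, was also in 0, against 3.22% of all windows. CAAGTG, the other part of that site, was in 2, those of Clic5 and Cldn18, against 14.3% of all windows. These 2 upstream stretches are printed because they are the marker promoters with a match, shown in capitals, and the match is a description of the letters only. The Clic5 stretch is chr17:44445409-44445658 on the plus strand and the Cldn18 stretch is chr9:99592117-99592366 on the minus strand, where it precedes the start of the main annotated transcript.
Clic5: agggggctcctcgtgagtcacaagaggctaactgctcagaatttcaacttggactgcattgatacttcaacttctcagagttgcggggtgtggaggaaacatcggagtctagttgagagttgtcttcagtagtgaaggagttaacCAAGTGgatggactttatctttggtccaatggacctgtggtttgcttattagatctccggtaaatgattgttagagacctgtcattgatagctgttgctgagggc
Cldn18: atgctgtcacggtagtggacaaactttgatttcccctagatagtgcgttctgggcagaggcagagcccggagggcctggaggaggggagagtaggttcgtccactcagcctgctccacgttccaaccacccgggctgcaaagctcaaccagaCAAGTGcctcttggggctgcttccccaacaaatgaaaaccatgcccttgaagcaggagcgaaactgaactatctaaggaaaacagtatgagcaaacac
Col4a3 (chromosome 1, plus strand) and Col4a4 (minus strand) lie head to head, and the first ends of their main transcripts share 104 bases. Whether the authors counted by strand is not given in the sources used here, so transcripts from that shared end cannot be assigned to one of the pair.

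Type 1 genes outside the gate were high too. In members, 24 of 24 further type 1 markers lay above the other nuclei in each of the 4 animals, and 14 were more than 4 times as high in each. Ranked by the lowest ratio to the other nuclei over the animals, among genes at 50 CPM or more in the members of all 4 animals, the 10 leading genes outside the gate were Ndnf, Lama3, Trim16, Pxdc1, Scel, Cyp2b10, Tmod1, Npr2, Sh3rf3 and Scnn1g. Ndnf, which encodes a secreted protein named for its effect on neurons, stood at 196, 224, 79.5 and 216 CPM in members and at 0.903, 1.88, 0.513 and 1.24 CPM in the other nuclei. Lama3, the laminin chain of epithelial anchoring, stood at 870.2, 636, 498 and 545 CPM against 6.13, 7.94, 4.98 and 5.59 CPM. Both genes were lowest in the members of RPC1. Scnn1g, a subunit of the epithelial sodium channel, stood at 274, 318, 256 and 265 CPM against 1.43, 4.87, 6.58 and 3.54 CPM, and Tmod1, which caps actin filaments, at 290.1, 221, 232 and 295 CPM against 2.80, 4.50, 3.52 and 3.96 CPM. Scel, which encodes the envelope protein sciellin, varied most among these 10 genes, from 62.7 to 374 CPM. Cyp2b10, a cytochrome P450, did not separate the alveolar types, with 470.4, 782, 782 and 719 CPM in type 1 and 529, 479, 1074 and 1008 CPM in type 2 nuclei. In all, 72 genes outside the gate were more than 10 times as high in members as in the other nuclei of each animal. The members were chosen by the gate, so these ratios carry no test either.

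**Figure D1:**
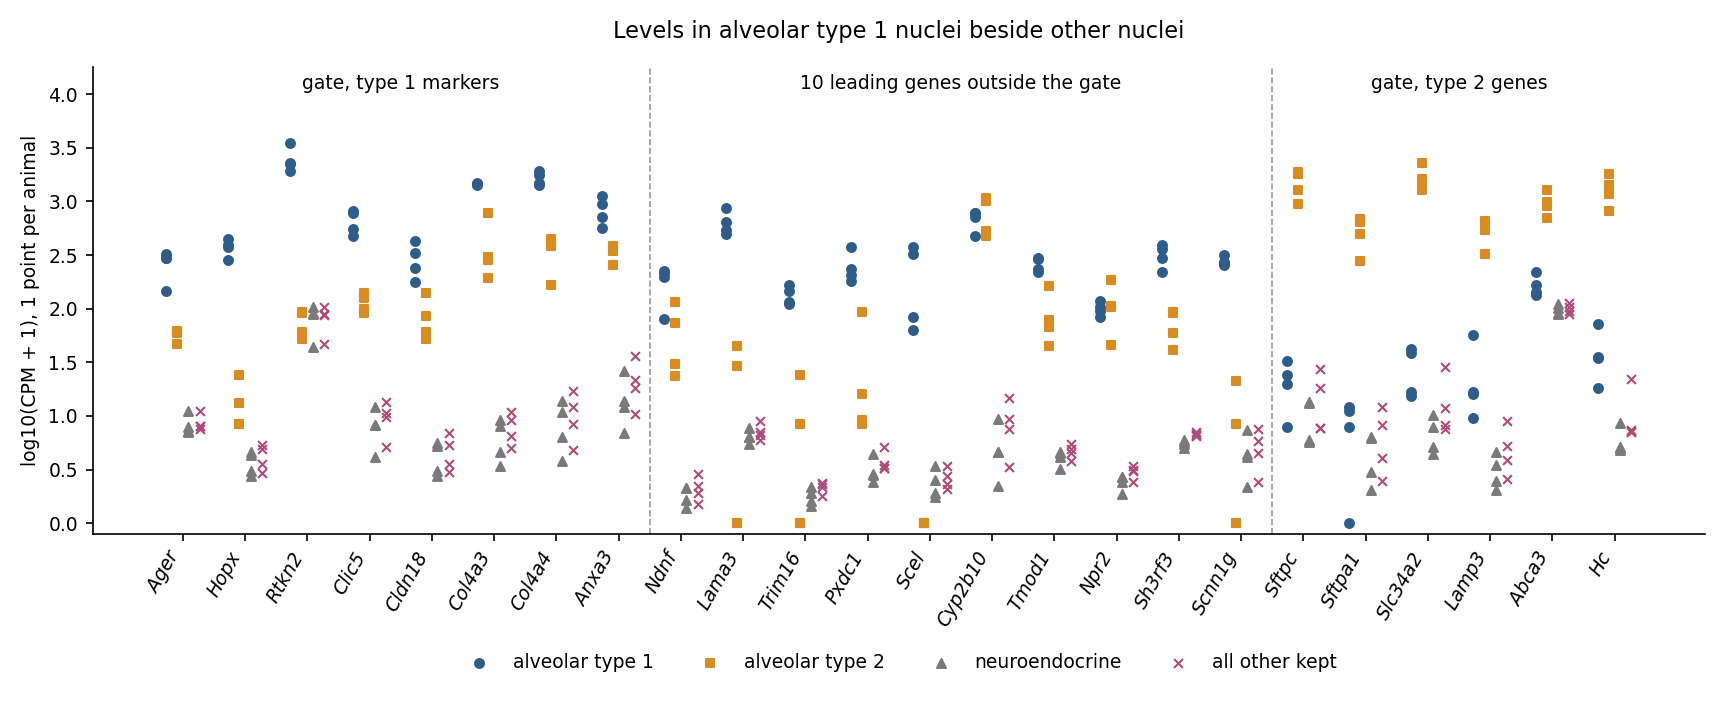
Each point is the level of 1 gene in 1 animal, as log10(CPM + 1), in alveolar type 1 nuclei (circles), alveolar type 2 nuclei (squares), neuroendocrine nuclei (triangles) and all other kept nuclei (crosses). For the 8 marker genes and the 10 leading genes outside the gate the type 1 circles lie above the triangles and crosses, and for the 6 type 2 genes the squares lie highest. Points at 0 are genes without a count in that animal's nuclei.

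Depth sets how many nuclei show a given gene. At 1000 transcripts drawn per nucleus, with 11 members below that depth left out, 78.6, 67.3, 46 and 72.7% of members held Rtkn2, 17.9, 23.1, 26 and 40.5% held Hopx and 28.6, 30.8, 12 and 30.6% held Ager. In endothelial nuclei at the same depth, which should lack these genes, the shares were 0 to 4.48% for Rtkn2 and 0 to 1.49% for Ager, and 0 for Hopx in 49 to 92 nuclei per animal (upper limits of 3.93 to 7.25% by the exact binomial interval). These 3 genes chose the members, so the higher shares were fixed by the rule. Without drawing, 56.9 to 96.7% of members held Rtkn2 and 45.1 to 66.7% held Ager, at median depths of 2997.5 to 3503.5 transcripts in members and 1820.5 to 3101 in the endothelial nuclei used. Of the members, 179 held 6 or more of the 8 marker genes, 63 held all 8 and 27 held 3.

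Type 2 genes were mostly lower in the members than in type 2 nuclei. For the 6 gate genes this was set by the rule, since their sum had to stay below that of the type 1 genes. The 6 type 2 gate genes had no count in 129 of the 262 members (49.2%), and 4 members reached the type 2 gate as well. Sftpc, the surfactant protein of type 2 cells, stood at 31.4, 18.7, 6.92 and 22.9 CPM in members and at 1265, 1870.2, 949 and 1808 CPM in type 2 nuclei. Of 20 further type 2 genes, 15 were lower in members than in type 2 nuclei in all 4 animals. Beside all other kept nuclei, 7 of the 20 were higher in members in all 4 animals and 2 were lower. More than 4 times as high in each animal were 4 of them. The 20 genes summed to 729, 561, 1442 and 533 CPM in members and to 260, 365, 350 and 241 CPM in the other nuclei. Sftpb, another surfactant protein, stood at 118, 74.8, 429 and 112 CPM in members against 3725, 4134, 4641 and 5528 CPM in type 2 nuclei, and Etv5, a factor that maintains type 2 cells, at 15.7, 18.7, 0 and 11.4 CPM against 299, 446, 287 and 314 CPM. RPC1 held the highest type 1 level of Sftpb. The 20 genes of the transitional state between both types summed to 706, 696, 737 and 538 CPM in members. They summed to 329, 473, 402 and 363 CPM in the other nuclei and to 805, 458, 346 and 329 CPM in type 2 nuclei. Krt8, a keratin of that state, stood at 54.9, 11.2, 20.8 and 55.8 CPM in members and at 33.4, 44.1, 30.5 and 56.5 CPM in the other nuclei, and 4 of the 20 genes of that list were above the other nuclei in all 4 animals. Those 4 were the keratin Krt19, the lectin Lgals3, the growth factor Hbegf and Itgav, an integrin chain that activates TGF-beta.

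The share of members in the kept nuclei came to 0.359% for RP1 (95% exact binomial interval 0.242 to 0.512%), 0.620% for RP2 (0.467 to 0.806%), 0.470% for RPC1 (0.350 to 0.617%) and 1.24% for RPC2 (1.03 to 1.47%). RPC2 stood above the other 3 animals, and the shares of RPC1 and RP2 overlapped within their intervals, which cover counting error only. RP animals averaged 0.489% ± 0.185 (SD, n = 2) and RPC animals 0.855% ± 0.544 (SD, n = 2). Their difference of 0.366 percentage points did not exceed the spread between animals (exact permutation test, two-sided, p = 0.667, where 0.333 is the smallest p that 2 against 2 animals can give). Without RPC2 the sign of the difference turned, to -0.0193 percentage points. Both barcoding wells of RPC2 stood high, at 1.38 and 1.09%, against 0.268 to 0.623% in the wells of the other animals. The number of type 1 cells and the amount of tumor in the piece of tissue cannot be told apart from such shares.

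Type 2 nuclei numbered 15, 84, 26 and 43. Type 1 nuclei made up 66.7% of all alveolar nuclei for RP1 (95% exact binomial interval 51.0 to 80.0%), 39.6% for RP2 (31.4 to 48.2%), 66.2% for RPC1 (54.6 to 76.6%) and 74.6% for RPC2 (67.3 to 80.9%). RP2 alone held more type 2 than type 1 nuclei. RP animals averaged 53.1% ± 19.2 (SD, n = 2) and RPC animals 70.4% ± 5.88 (SD, n = 2), 17.3 percentage points apart, and the genotypes overlapped through RP1 and RPC1 (exact permutation test, two-sided, p = 0.667). Among nuclei with at least 1000 transcripts RP1 and RPC1 stood at 65.1 and 65.8%, and without nuclei above 4 times the median depth at 63.4 and 64.9%, so that the genotypes no longer overlapped and the exact permutation p was 0.333, the smallest this design allows.

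**Figure D2:**
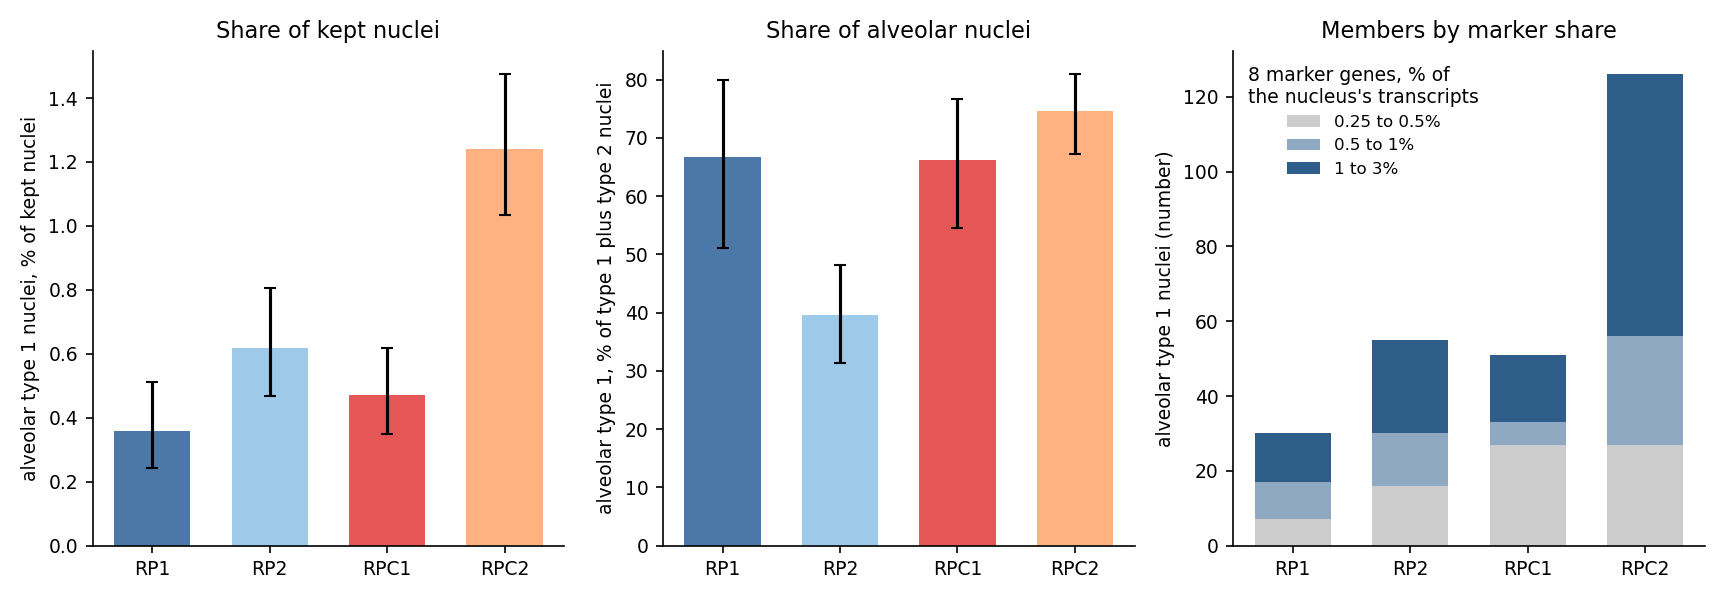
Bars give, per animal, alveolar type 1 nuclei in percent of kept nuclei (left) and in percent of type 1 plus type 2 nuclei (middle), with 95% exact binomial intervals, and the number of members by the share of their transcripts in the 8 marker genes (right). RPC2 has the tallest bar in each panel, RP2 the lowest in the middle one, and 27 of the 51 members of RPC1 fall in the lowest marker band.

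The members were not uniform. In 77 of them (29.4%) the marker genes made up less than 0.5% of the transcripts, and these were 7 of the 30 members of RP1, 16 of the 55 of RP2, 27 of the 51 of RPC1 and 27 of the 126 of RPC2. Just inside the limit, between 0.25 and 0.30%, lay 2, 6, 14 and 4 members, and between 0.20 and 0.25% lay 2, 6, 12 and 9 nuclei that met the other conditions. The 24 type 1 markers outside the gate made up 0.622, 0.866, 0.620 and 0.837% of the transcripts of those inside and 0.690, 0.544, 0.399 and 0.594% of those outside. Nuclei on both sides of the limit thus carried these markers, and RPC1 had the most nuclei close to it.

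Marker genes of other cell types had counts in the members. Neuroendocrine and club markers fell from the lowest to the highest of these bands. Macrophage markers rose, from 0.00439, 0.00847, 0.00286 and 0.00348% to 0.00849, 0.0135, 0.0148 and 0.0110%, and fibroblast markers rose in all animals but RP1. The 14 neuroendocrine markers, which mark the tumor cells, made up 0.152, 0.134, 0.196 and 0.306% of the members' transcripts, against 0.483, 0.422, 0.548 and 0.591% in neuroendocrine nuclei, and all 14 were lower in members than in the other nuclei of every animal. In members with a marker share below 0.5% the figures were 0.231, 0.174, 0.232 and 0.457%, and in those from 1 to 3% they were 0.0538, 0.0310, 0.0526 and 0.0951%. RPC2 carried the most in both bands. Altogether 52 members, 35 of them in RPC2, also reached a gate for neuroendocrine nuclei. Calca, the tumor's calcitonin gene, stood at 133, 258, 623 and 963 CPM in members and at 734, 656, 1688 and 1604 CPM in the other nuclei. The 6 club cell markers made up 0.0783% of the transcripts of the low band of RPC1, against 0.0132 to 0.0269% in the low bands of the other animals. The 8 endothelial markers summed to 54.9, 37.4, 96.8 and 139 CPM in members and to 88.3, 111, 82.8 and 116 CPM in the other nuclei, with none of the 8 higher or lower than the others in all 4 animals. The 8 macrophage markers summed to 68.7 to 116 CPM in members and 48.5 to 71.7 CPM in the others. Csf1r, the receptor of a macrophage growth factor, carried most of the sum in members in each animal, at 54.9, 89.8, 51.9 and 58.6 CPM, 8.34 to 10.6 times the level of the other nuclei, and Adgre1 and Mrc1 had no count in the members of RP. The 8 fibroblast markers made up 0.0329, 0.0194, 0.0301 and 0.0296% of the members' transcripts against 0.00891, 0.0121, 0.00625 and 0.00563% in the other nuclei. Most of that was Npnt, the basement membrane protein nephronectin, 11.2 to 21.4 times as high in members, at 290.1, 146, 294 and 279 CPM, and at 391, 183, 331 and 291 CPM in type 2 nuclei. Tcf21 and Inmt had no count in any member, and 6 of the 8 were lower than in the other nuclei in all 4 animals. Of the 5 mesothelial markers, Wt1 and Upk3b had no count. The 6 ciliated markers summed to 54.9, 348, 346 and 81.5 CPM. A club, endothelial or ciliated gate was reached by 10 members. Members deeper than 4 times the median of their animal numbered 26 and held 31.7 to 41.2% of the members' transcripts. The part of transcripts from other cells in the results below was not tested. For genes named from the 10 lists or by smallest p, the value without neuroendocrine-gate members is given if the difference shrank over 1.5 times.

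**Figure D3:**
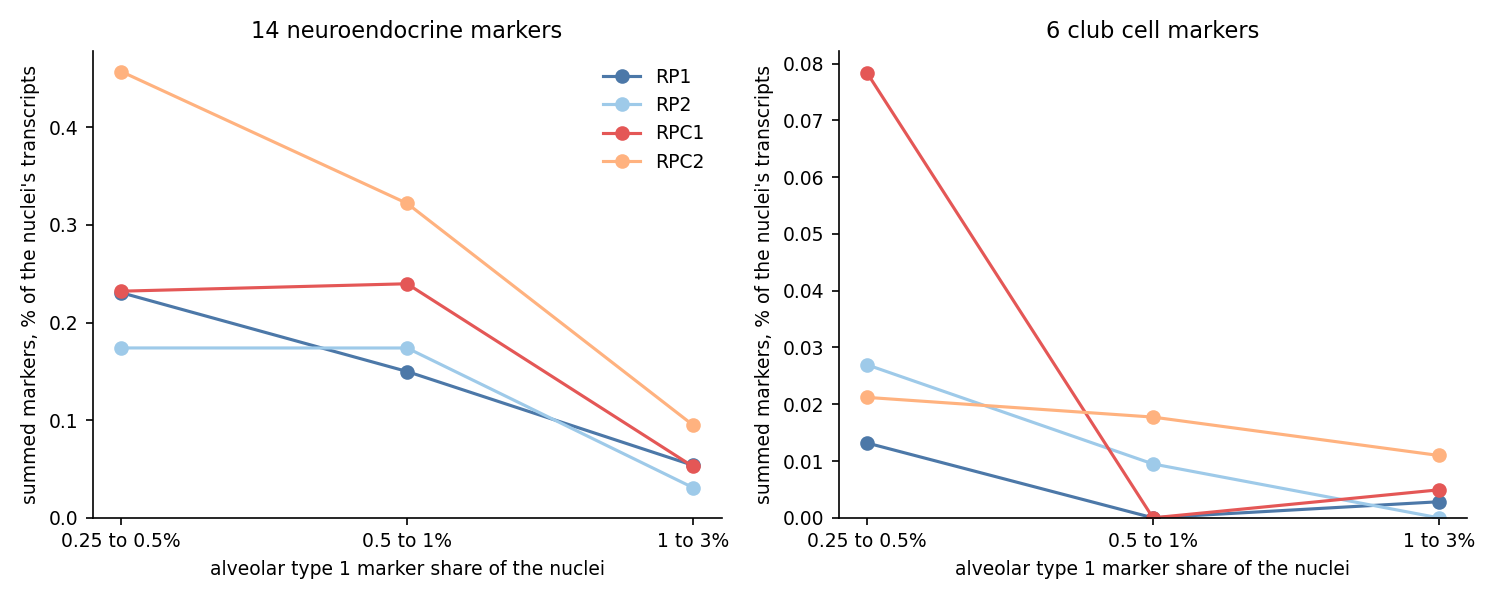
Lines give, per animal, the share of the members' transcripts in 14 neuroendocrine markers (left) and 6 club cell markers (right), in percent, by the band of alveolar type 1 marker share. Both fall from the lowest to the highest band in every animal, RPC2 lies highest on the left, and the low band of RPC1 stands out on the right at 0.0783%.

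Counts of the members were summed per animal, 127563, 267373, 289141 and 699187 transcripts, and the genotypes were compared by edgeR (quasi-likelihood). Of 5465 genes tested, 1 passed an adjusted p of 0.05 (0.0183%), and 574 (10.5%) had an unadjusted p under 0.05, 284 of them (5.2%) higher in RPC. In the other nuclei of the same animals, edgeR called 0 of 21361 genes, with 3342 (15.6%) at an unadjusted p under 0.05. DESeq2 was not run on these other nuclei. The paper used it on summed tumor cells and reported genes that passed an adjusted p of 0.05. The 1 gene that edgeR called in members was Pabpc4 (ENSMUSG00000011257, GRCm39 chr4:123156144-123192720, plus strand), which encodes a cytoplasmic poly(A)-binding protein. It stood at 321 and 183 CPM in the members of RP and at 20.8 and 24.3 CPM in those of RPC (log2 fold change -3.47 ± 0.40 SE, adjusted p = 0.0318). The other nuclei of the same animals held 525 and 331 CPM in RP and 24.1 and 35.4 CPM in RPC, with the same direction. The call was lost with at least 4 marker genes, without nuclei above 4 times the median depth and without members of another gate, where the log2 fold change was -3.42, -3.95 and -3.44. In simulated sums of this size all genes were given a common spread between animals, unlike in the data. There, 42 of 50 genes changed by 2 on the log2 scale were called but 4 of 50 changed by 1. Changes of the latter size were thus mostly not detectable at this depth even in that setting, and the counts need not hold for the data.

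The other 9 genes with the smallest p had adjusted p from 0.0682 to 0.129. Frmpd4, a scaffold of synapses, stood at 70.6 and 165 CPM in RP and 858 and 636 CPM in RPC members (log2 fold change 2.46 ± 0.35 SE), and Grm5, a glutamate receptor, at 47 and 78.5 against 359.7 and 283 CPM (2.17 ± 0.33). Without members of the neuroendocrine gate Frmpd4 differed by 0.41 (adjusted p = 0.853) and Grm5 was too low to be tested, and without nuclei above 4 times the median depth they differed by 1.49 and 1.47. Ppt1 kept a difference of -1.69 without members of the neuroendocrine gate. Corin, a membrane protease, stood at 0 and 7.48 against 166 and 98.7 CPM, Cntn3, a neuronal adhesion protein, at 31.4 and 41.1 against 197 and 154 CPM. Of the 14 alternatives, Corin could be tested under only 11, where it differed by 3.95 to 8.57. Cntn3 could be tested under only 12, where it differed by 1.96 to 2.41. For Frmpd4, Grm5, Corin and Cntn3 the other nuclei stood above the members in every animal and differed in the same direction. Lower in RPC were Lars2, the mitochondrial leucyl-tRNA synthetase (13679.5 and 8931 against 2781 and 2409 CPM), the small nuclear RNA gene Scarna2 (439 and 793 against 169 and 154 CPM), Ppt1, a lysosomal enzyme (133 and 101 against 13.8 and 25.7 CPM), and the unnamed genes Gm15564 and Gm30835. Log2 fold changes of these genes in the other nuclei were -2.06 for Lars2, -2.13 for Scarna2, -2.72 for Ppt1, -2.25 for Gm15564 and -5.16 for Gm30835, beside -2.21, -2.05, -2.47, -2.74 and -3.70 in members. The other nuclei stood above the members in every animal for Pabpc4, Lars2, Ppt1, Gm15564 and Gm30835 as well. Levels in members were 0.553 to 0.859 times those of the others for Pabpc4, 0.766 to 0.913 times for Lars2 and 0.836 to 1.17 times for Scarna2. DESeq2, the tool of the study, called 11 of 18918 genes in members (0.0581%). The 5 higher in RPC (0.0264%) included Calca, Col8a1, Frmpd4 and Grm5, and the 6 lower (0.0317%) were Pabpc4, Lars2, Camk1d, Gm15564, Scarna2 and Rn7sk. Calca is 1 of the neuroendocrine markers, whose sum was higher in the members of both RPC animals. By edgeR 9 of these markers were tested in members, and 3 (Calca, Ncam1 and Scg3) were higher in RPC at an unadjusted p under 0.05. Without members of the neuroendocrine gate 4 markers were tested, and 0 had such a p. Casp8 itself stood at 23.5 and 63.6 CPM in the members of RP and 89.9 and 50.1 CPM in those of RPC, Rb1 at 235 and 131 against 235 and 256 CPM, and Trp53 at 23.5 and 15 against 10.4 and 37.2 CPM, from 3 to 35 transcripts per animal for Casp8 and Trp53. Counts were taken over whole genes, of which the deletion removes a part, so they do not check the labels.

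Of the genes on the 10 lists of alveolar biology, Vegfa had the smallest p, and it did not pass the adjusted threshold. Vegfa (ENSMUSG00000023951, GRCm39 chr17:46327919-46343309, minus strand), the main growth factor of lung capillaries, stood at 1066 and 1171 CPM in the members of RP and at 512 and 574 CPM in those of RPC (log2 fold change -1.13 ± 0.23 SE, edgeR unadjusted p = 0.000683, adjusted p = 0.175). The genotypes did not overlap, as was the case for 962 genes lower in RPC (17.6%) and 1445 higher (26.4%). In members from 0.5% marker share, Vegfa differed by -1.03 on the log2 scale, and without members of the neuroendocrine gate by -0.72. Over 14 alternatives the difference ran from -1.25 to -0.72, with adjusted p from 0.00335 to 0.587. At 1000 transcripts per nucleus, 75, 73.1, 46 and 43.8% of members held Vegfa, against 6.52 to 12.2% of endothelial nuclei. Type 2 nuclei showed a similar order, with 322 and 264 CPM in RP and 95.6 and 157 CPM in RPC, and so did the other nuclei, with 79.99 and 111 against 61.9 and 34 CPM.

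Of the 24 secreted signals of the alveolar niche, 10 could be tested, and 3 had an unadjusted p under 0.05, each lower in RPC as were 5.31% of all genes tested, with a median log2 fold change of -0.53 against 0.01 over all genes tested. Beside Vegfa these were Tgfb2, a transforming growth factor, at 118 and 157 against 79.5 and 45.8 CPM (log2 fold change -1.32 ± 0.38 SE, adjusted p = 0.341, and -0.40 without members of the neuroendocrine gate), and Sema3b, a semaphorin, at 70.6 and 41.1 against 17.3 and 12.9 CPM (adjusted p = 0.354). None of the 3 passed adjustment. Sema3e and Sema3a, semaphorins that guide vessels and axons, stood at 815, 939, 761 and 867 CPM and at 219, 322, 322 and 396 CPM, and Pdgfa, which maintains alveolar fibroblasts, at 125, 149.6, 111 and 107 CPM. Wnt3a, a Wnt ligand, stood at 54.9, 63.6, 41.5 and 91.5 CPM in members and at 0.373, 0.541, 0.171 and 0.770 CPM in the other nuclei. In members from 0.5% marker share the median of this list was -0.06, and without members of the neuroendocrine gate -0.07. Leaving out 1 animal at a time gave medians from -0.75 to -0.31.

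The basement membrane list held the largest number of lower genes. Of its 24 genes 16 were tested, and 7 had an unadjusted p under 0.05, all lower in RPC (Col4a1, Lama3, Lama5, Lamb3, Agrn, Dag1 and Itga3), beside 5.31% of all genes tested that were lower in RPC at this p. None passed adjustment. Lama5, a laminin chain of the alveolar wall, stood at 494 and 310.4 CPM in RP and 190.2 and 162 CPM in RPC (log2 fold change -1.26 ± 0.29 SE, adjusted p = 0.229). Lamb3, the partner of Lama3 in epithelial laminin, stood at 102 and 131 against 55.3 and 41.5 CPM (adjusted p = 0.332), and Lama3 at the levels given above. For these 3 genes both RPC animals lay below both RP animals, as was the case for 17.6% of all genes tested. Col4a1 and Col4a2, the common chains of type IV collagen, stood at 588, 886, 266 and 556 CPM and at 737, 808, 588 and 772 CPM, with RPC1 the lowest for both. Agrn, the heparan sulfate proteoglycan agrin, stood at 361 and 389 against 201 and 269 CPM, and Dag1, the laminin receptor dystroglycan, at 470.4 and 430.1 against 315 and 250.3 CPM. Itga3, an integrin chain that binds laminins, stood at 274 and 243 against 128 and 190.2 CPM. Col4a5, another collagen IV chain, went the other way in level, at 259 and 284 against 439 and 368 CPM (edgeR adjusted p = 0.541). Col4a6 and Itga6 were also higher in both RPC animals, with log2 fold changes of 1.26 and 0.77 (edgeR unadjusted p = 0.0635 and 0.0709). These were the 3 tested genes of the list with both RPC animals above both RP animals, as was the case for 26.4% of all genes tested. Col4a4 stood at 1474 and 1425 against 1764 and 1931 CPM. It is a gate gene, whose counts chose the members, and supports nothing here. The list's median log2 fold change was -0.65, which became -0.35 with 3 of 13 tested genes lower and 1 higher in members from 0.5% marker share, and -0.29 without members of the neuroendocrine gate. Leaving out 1 animal at a time gave medians from -0.66 to -0.36, and the number of lower genes fell to 3 when RPC1 was left out and to 4 when RP2 was. Without members of the neuroendocrine gate Col4a1 differed by -0.46, Agrn by -0.34 and Lama3 by -0.34, and without nuclei above 4 times the median depth Lama5 differed by -0.76 and Lamb3 by -0.81.

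The difference in type 1 identity genes depended on the choice of members and animals. Over the 22 tested type 1 markers outside the gate the median log2 fold change was -0.41. Aqp5, Vegfa and Gprc5a had an unadjusted p under 0.05, all lower in RPC, as were 5.31% of all genes tested. Aqp5, the water channel of the alveolar surface, stood at 62.7 and 78.5 against 20.8 and 35.8 CPM (log2 fold change -1.34 ± 0.46 SE, adjusted p = 0.356), and Gprc5a, an orphan receptor, at 635 and 557 against 294 and 418 CPM (adjusted p = 0.354). Without members of the neuroendocrine gate Aqp5 differed by -0.78 and Gprc5a by -0.49. In members from 0.5% marker share the median was -0.07, without members of the neuroendocrine gate -0.05, and without RPC1 -0.08. Without RPC2 it was -0.84. Limch1 and Lmo7, which bind actomyosin and junctions, stood at 4789.8, 4492, 3998 and 4549.6 CPM and at 3253, 2801, 2435 and 3305 CPM. Timp3, an inhibitor of matrix proteases, stood at 1317, 1039.8, 878 and 1157 CPM. Emp2, a membrane protein of type 1 cells, stood at 564, 505, 273 and 556 CPM, and Pdpn, podoplanin, at 235, 187, 72.6 and 207 CPM. For both the RPC1 members alone were low. Of the gate genes, whose counts chose the members and which are therefore given without a test, Cldn18, the claudin of the alveolar barrier, stood at 431 and 333 CPM in RP and 176 and 240.3 CPM in RPC, and Anxa3, an annexin, at 564 and 711 CPM and 948 and 1124 CPM.

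**Figure D4:**
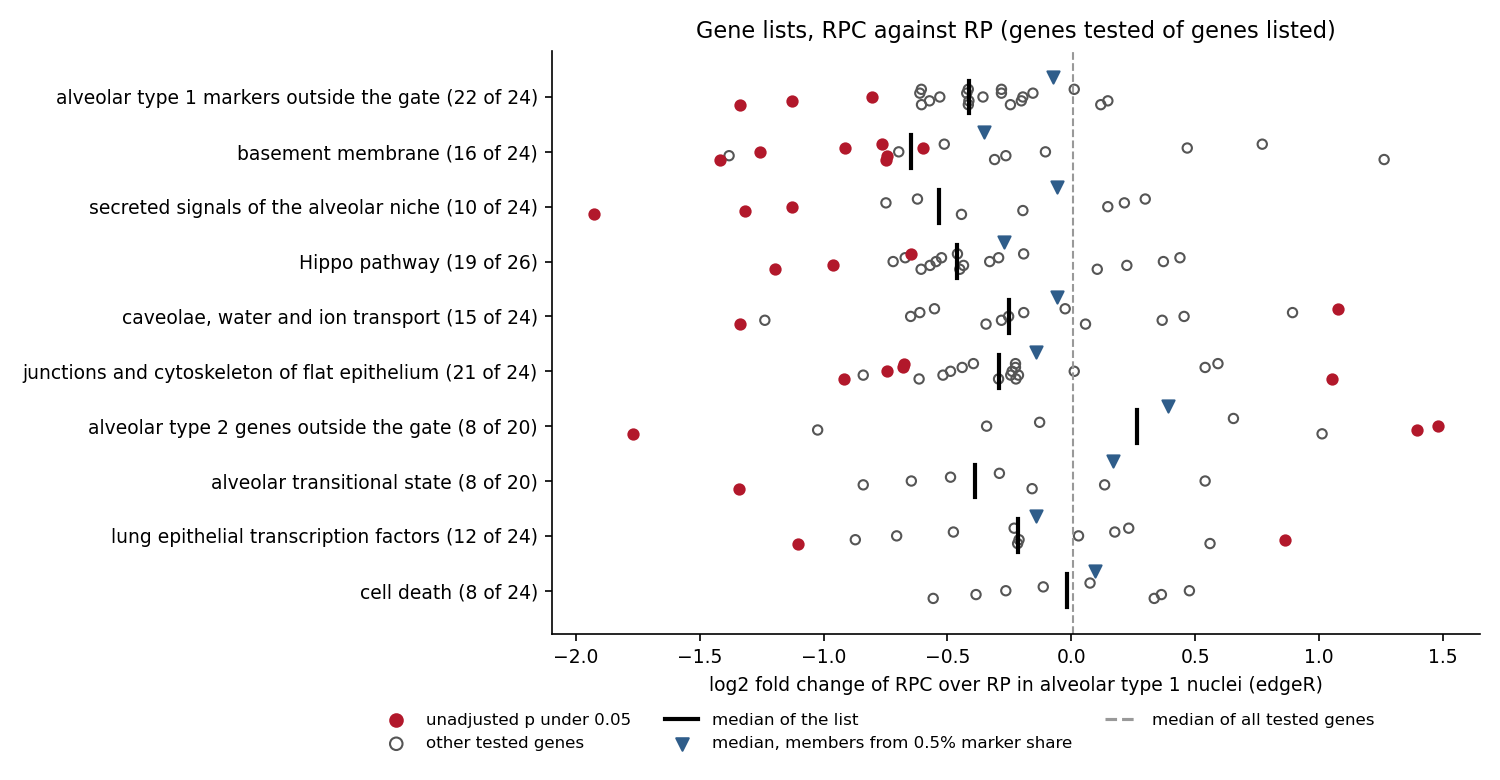
Each circle is 1 tested gene of a list, placed by the log2 ratio of RPC to RP in alveolar type 1 nuclei (edgeR), filled in red where the unadjusted p was under 0.05 (the junction list holds the gate gene Cldn18). Black bars give the median of the list, blue triangles the median when only members from 0.5% marker share entered, and the dashed line the median of all genes tested. For 9 of the 10 lists the bar lies left of the dashed line, and the triangles of the type 1 marker and secreted signal lists lie close to it.

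Of the 26 Hippo pathway genes, 19 were tested. Tead4, Sav1 and Wwc1 had an unadjusted p under 0.05, all lower in RPC, as were 5.31% of all genes tested. Wwc1 (Kibra), an upstream activator of the pathway, stood at 1074 and 931 CPM in RP and 591 and 754 CPM in RPC (log2 fold change -0.65 ± 0.24 SE, adjusted p = 0.406), and Tead4, a DNA-binding partner of Yap1, at 165 and 101 against 62.3 and 74.4 CPM (adjusted p = 0.417). Without members of the neuroendocrine gate Wwc1 differed by -0.39 and Tead4 by -0.56, and without RP1, RP2 or RPC1 the lower genes of the list numbered 1. Wwtr1 (Taz) stood at 243, 288, 204 and 187 CPM in members and 9.21, 20.2, 23.7 and 10.1 CPM in the other nuclei, while Yap1 stood at 70.6, 71.1, 83 and 91.5 CPM against 13.2, 18.3, 22.4 and 12.6 CPM. Both effectors were higher in members than in the other nuclei in all 4 animals. Their targets Ccn1 and Ccn2 stood at 31.4, 15, 10.4 and 20.02 CPM and 23.5, 33.7, 41.5 and 44.3 CPM, the latter from 3, 9, 12 and 31 transcripts in the order of the animals. The list's median was -0.46, and -0.27 in members from 0.5% marker share, where 0 genes were lower in RPC at an unadjusted p under 0.05. With 1 animal left out at a time, it ran from -0.57 to -0.41.

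Few transport genes had an unadjusted p under 0.05. Of 24 genes 15 were tested, with a median of -0.25. At this p 1 was lower (Aqp5) and 1 higher (Atp1b1) in RPC, beside 5.31 and 5.2% of all genes tested. The 3 sodium channel subunits Scnn1a, Scnn1b and Scnn1g stood at 517, 505, 377 and 471 CPM, at 361, 292, 183 and 275 CPM and, as given above, between 256 and 318 CPM for Scnn1g, and none of the 3 had an unadjusted p under 0.05. Nedd4l, the ligase that removes this channel from the membrane, stood at 1646, 875, 2199.6 and 1231 CPM. Atp1b1, a chain of the sodium pump, stood at 141 and 135 CPM in RP and 405 and 225 CPM in RPC members (log2 fold change 1.08 ± 0.34 SE, adjusted p = 0.342), and at 104 and 109 against 349 and 168 CPM in the other nuclei. Cav1, the caveolin of type 1 cells, stood at 78.4, 221, 86.5 and 130.2 CPM against 3.33, 5.24, 2.76 and 3.42 CPM in the other nuclei.

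Of 24 genes of junctions and cytoskeleton, 21 were tested, with a median of -0.29. At an unadjusted p under 0.05, 4 were lower and 1 higher (Epcam) in RPC, beside 5.31 and 5.2% of all genes tested. The lower genes were Cdh1, Myh14, Myo1e and the gate gene Cldn18, whose counts chose the members and which supports nothing here. Myh14, a non-muscle myosin, stood at 1262 and 1058 against 750.5 and 785 CPM, Myo1e, an unconventional myosin, at 784 and 438 against 408 and 353 CPM, and Cdh1, E-cadherin, at 533 and 479 against 391 and 285 CPM. Epcam, an adhesion molecule that tumor cells also express, stood at 47 and 82.3 against 138 and 162 CPM in members and at 135 and 168 against 278 and 269 CPM in the other nuclei. Adjusted p ran from 0.356 to 0.417 for Myh14, Epcam, Cdh1 and Myo1e, and Myo1e differed by -0.32 on the log2 scale without RP1. Pard3, Ctnna1 and Tjp1, of cell polarity and junctions, each had an unadjusted p above 0.05.

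The remaining lists held few genes with an unadjusted p under 0.05. Of all genes tested, 5.31% were lower and 5.2% higher in RPC at this p. Of 8 tested type 2 genes outside the gate, Sftpb (118 and 74.8 against 429 and 112 CPM) and Napsa, a protease of surfactant processing (23.5 and 11.2 against 51.9 and 42.9 CPM), were higher in RPC, and Fasn, the fatty acid synthase, lower (125 and 89.8 against 38 and 28.6 CPM) at an unadjusted p under 0.05, with adjusted p of 0.437, 0.441 and 0.229. Of 8 tested genes of the transitional state, Hbegf, an EGF receptor ligand, was lower (54.9 and 78.5 against 24.2 and 31.5 CPM, adjusted p = 0.354), and differed by -0.29 without members of the neuroendocrine gate. Sftpb differed by 0.26 without RPC1, beside 1.40 with all animals. Of 12 tested lung epithelial transcription factors, Foxp4 (219 and 172 against 107 and 85.8 CPM) was lower and Foxp2 (141 and 119.7 against 280.1 and 222 CPM) higher at this p. Nkx2-1, the factor that maintains alveolar identity, stood at 172, 149.6, 58.8 and 137 CPM. Of 8 tested cell death genes, 0 had an unadjusted p under 0.05, with Ripk1, the kinase that starts necroptosis, at 54.9, 52.4, 41.5 and 44.3 CPM, Mlkl, its executioner, at 31.4, 56.1, 41.5 and 28.6 CPM, and Ripk3 without a count in any member.

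Whether RPC and RP differed by another amount in type 1 nuclei than in all other kept nuclei was tested as an interaction over the sums of members and others, with the animal as a block. Of 18570 genes, 6 passed (0.0323%), 2 with a higher (0.0108%) and 4 with a lower value (0.0215%), around a median shift of 0.14 on the log2 scale over all genes. Pdzrn3, a ubiquitin ligase, stood at 259, 269, 349 and 309 CPM in members and at 382, 52.4, 20.1 and 45.9 CPM in the other nuclei. Il18r1, a receptor chain of interleukin 18, stood at 878, 763, 778 and 664 CPM in members and at 14.6, 23.1, 63 and 74.7 CPM in the others, and Cped1 at 455, 673, 602 and 665 CPM and 1369, 479, 229 and 245 CPM. For these 3 genes the members varied less between animals than the other nuclei, which are mostly tumor, and RP1 alone was high in the other nuclei for Pdzrn3 and far above the rest for Cped1. The interaction was 2.43 ± 0.31 SE for Pdzrn3 (edgeR adjusted p = 1.97e-10), -2.04 ± 0.29 for Il18r1 (adjusted p = 1.43e-08) and 1.90 ± 0.30 for Cped1 (adjusted p = 1.83e-06). Il18r1 was 8.88 to 60.3 times as high in members as in the other nuclei. In members alone, RPC and RP differed by 0.22, -0.27 and 0.06 for Pdzrn3, Il18r1 and Cped1 on the log2 scale, with unadjusted p of 0.389, 0.267 and 0.813. Without RP1 the interaction was 1.07 for Pdzrn3, -1.63 for Il18r1 and 0.96 for Cped1, and 0 genes passed this test (edgeR, 563 at an unadjusted p under 0.05), and without RP2 30 and without RPC2 33 did. DESeq2 called 1, Il18r1, and gave Pdzrn3 an unadjusted p of 0.0757.

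**Figure D5:**
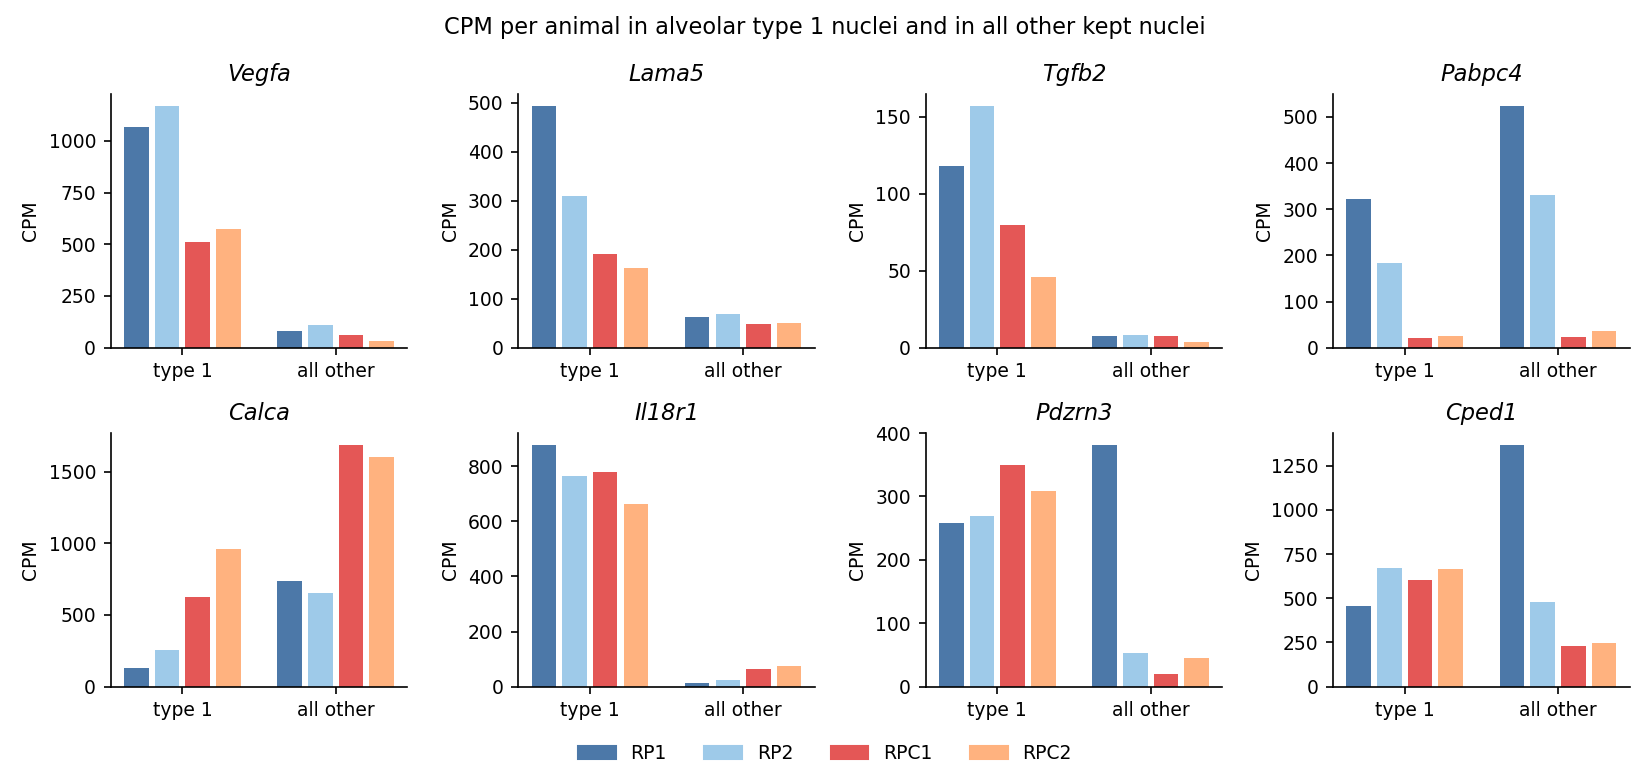
Bars give CPM per animal for 8 genes in alveolar type 1 nuclei and in all other kept nuclei. Vegfa, Lama5 and Tgfb2 are lower in the type 1 nuclei of both RPC animals, as are 17.6% of all genes tested. Pabpc4 and Calca differ in the same direction in both groups of nuclei. Il18r1, Pdzrn3 and Cped1 vary less between animals in type 1 nuclei than in the other nuclei.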

How the data were processed

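Nuclei of 4 tumors were barcoded by split pooling and sequenced as 7 libraries. The authors aligned the reads to GRCm39 and deposited raw transcript counts per gene and nucleus with a table of nuclei, of whose 12 columns 8 were not used here. Nuclei with at least 300 transcripts, at most 10% mitochondrial transcripts and at most 12000 genes were kept, and no barcode occurred in more than 1 animal. Doublets were not called. Members were chosen by the marker rule, and the members and gene lists were chosen with earlier results of these data known. Counts were summed per animal and RPC was tested against RP with edgeR 4.0.16 in R 4.3.3 (filterByExpr, TMM, quasi-likelihood test, Benjamini-Hochberg adjustment at 0.05). The SE is the absolute log2 fold change over the square root of F. DESeq2 1.42.0 was the alternative, and further alternatives changed the filter, the scaling, the gate or the animals. The test was tried on simulated counts of 5465 genes with a common spread for all genes. Shares of nuclei were compared by exact permutation over animals. With 2 tumors per genotype, p-values rest on the spread between these animals. In the edgeR tests that spread was partly shared between genes. In the interaction test it was shared wholly, so a gene's own spread between animals did not enter its p-value. Binomial intervals cover counting error only.

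Named genes were the gate genes, up to 6 members of each list by level and those with an unadjusted p under 0.05, the 10 leading genes outside the gate, the genes called and the 10 of smallest p, and Casp8, Rb1 and Trp53. Genes named beyond this rule, such as those of the interaction and of DESeq2, were chosen after their values were seen. Member totals ranged from 127563 to 699187 transcripts per animal. Some genes are not reported here.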

Additional observations from a re-analysis of the deposited data

Results flagged for a closer look

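The interaction test of edgeR called 6 genes for unlike differences between RPC and RP in alveolar type 1 nuclei and all other kept nuclei. Its value, the log2 difference in type 1 nuclei minus that in the others, was 2.43 for Pdzrn3, -2.04 for Il18r1 and 1.90 for Cped1, and each of these was called under 11 of 13 alternatives. It was -2.03 for Arhgap8, called under 6 alternatives, -1.39 for Dock1, called under 7, and -3.73 for Gm32828, called under 9. Dock1 gave -0.19 without RPC1, -0.74 without RP1 and -2.54 without RPC2, Arhgap8 -1.16 without RP1 and Gm32828 -1.54 without RP1, while Pdzrn3 gave 1.07 and Cped1 0.96 without RP1. Dock1, a regulator of Rac, stood at 611, 359, 522 and 257 CPM in type 1 nuclei and at 30.8, 45.7, 243 and 26.3 CPM in the others, where RPC1 alone was high. Arhgap8 stood at 267, 112, 135 and 85.8 CPM in type 1 nuclei and at 8.28, 11.9, 27.8 and 24.2 CPM in the others. Gm32828 rested on 70.6, 7.48, 20.8 and 5.72 CPM in type 1 nuclei. In the edgeR fits of this test a gene's own spread between animals did not enter its p-value. The alternatives under which a gene was called are therefore not separate support for it. DESeq2 called only Il18r1 of the 6 and gave Pdzrn3 an unadjusted p of 0.0757. The 6 genes were chosen by the edgeR test, and what lies behind their values was not tested.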

How the results depend on the processing

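The 1 gene called between RPC and RP became 11 with DESeq2, 102 without a filter on low counts, 15 with the replicate block, 7 in members from 0.5% marker share, 6 without members of the neuroendocrine gate (an alternative chosen after seeing the data) and 0 with at least 4 marker genes, without nuclei above 4 times the median depth or without members of another gate. In edgeR these 3 left 546, 259 and 578 genes at an unadjusted p under 0.05. Leaving out 1 animal gave 12 to 173 genes, where the lone animal is assumed to vary like the others. Pabpc4 kept its direction under 14 alternatives and its call under 11. The replicate numbers are only names here, with a correlation of deviations of 0.0376 between RP1 and RPC1, so a call gained under the block or lost with it is not read. The 6 interaction genes became 1 with DESeq2, 10 without members of another gate, and 0 to 33 when 1 animal was left out. The difference in the share of kept nuclei ran from -0.0193 without RPC2 to 0.750 without RPC1, and that in the share of alveolar nuclei from 3.73 to 30.8. The log2 fold change of Casp8 ran from -0.036 without RP1 to 1.45 without RP2, was -0.0032 without RPC1 and turned to -0.21 without deep nuclei, and that of Rb1 turned to -0.25 from 0.5% marker share, -0.39 without deep nuclei and -0.42 without members of the neuroendocrine gate. Of 40 named genes, 38 kept their direction throughout. The causes were not tested. In the simulated sums of this depth, changes of 1 on the log2 scale were mostly missed.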
